A study of Mus musculus with 25 samples.

Results

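The genes described here are 10 growth factor and cytokine genes that myeloid cells can secrete into an injured spinal cord: Igf1, Vegfa, Pdgfa, Pdgfb, Csf1, Osm, Gdf3, Gdf15, Hbegf and Bdnf. They were listed by name, and all 10 were found among the 22439 gene rows of the deposited count matrices. The data are single-cell RNA-seq counts of 30958 mouse myeloid cells in 25 libraries. Cells came from the lesion of a spinal cord injury at 1 day (5 libraries), 2 days (4), 3 days (7), 10 days (5) or 21 days (2), or from a cord that had only a laminectomy (2 control libraries). Cells were sorted as YFP positive, and 3′ droplet libraries were made, each from the pooled tissue of 1 to 3 mice. Mice of the strain labelled Cx3cr1CreERT2 gave 12 libraries sorted on YFP alone, called mixed here because their titles name resident and infiltrating cells together. Mice of the strain labelled Cx3cr1CreERT2:R26tdTomato gave the libraries sorted as RFP+/YFP+, titled resident (5), and as RFP-/YFP+, titled infiltrating (7). All groups therefore carry the Cx3cr1CreERT2 allele, in which Cre is driven from the locus of the fractalkine receptor Cx3cr1, and strain and sort cannot be told apart between mixed libraries and the others. One further day 3 library has an infiltrating title and an RFP+/YFP+ sort label; it was left out of every comparison except where its placement is named as an alternative. Each library is labelled male or female, and both sexes occur among the controls and at each day after injury. Ages of the mice were not given in the labels used here, and no source states that libraries of a group came from separate experiments, so p-values measure the spread between these pooled libraries.

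As background, these genes encode secreted or shed ligands that act on neighbouring cells through cell-surface receptors. Insulin-like growth factor 1 (Igf1) signals through the receptor Igf1r to promote growth and survival, and microglia and macrophages are known sources of it in the developing and injured nervous system. Csf1 is the ligand of Csf1r, the receptor on which microglia and many macrophages depend. Vegfa drives vessel growth through Flt1 and Kdr, and Pdgfa and Pdgfb form the dimers that act on the platelet-derived growth factor receptors of glial progenitors, pericytes and fibroblasts. Gdf3 and Gdf15 are distant members of the transforming growth factor beta superfamily, and Gdf15 is a known stress-induced cytokine. Osm (oncostatin M) is an interleukin 6 family cytokine of myeloid cells, Hbegf is an epidermal growth factor receptor ligand shed from the membrane, and Bdnf is a neurotrophin.

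The sequences upstream of the start sites are shown for 4 of the genes described most fully below: Igf1 and Csf1, which rose in microglia, Vegfa, which fell in macrophages, and Gdf15, which was higher in macrophages than in microglia. They come from RefSeq (GRCm38.p6), run 5′ to 3′ on the gene's strand, and hold the 250 bases before an annotated start site. RefSeq windows were found for 6 of the 10 genes. Capitals mark matches, on either strand, to TGANTCA (the AP-1 site) or GGGCGG (the GC box).
Igf1, chr10:87860861-87861110, plus strand: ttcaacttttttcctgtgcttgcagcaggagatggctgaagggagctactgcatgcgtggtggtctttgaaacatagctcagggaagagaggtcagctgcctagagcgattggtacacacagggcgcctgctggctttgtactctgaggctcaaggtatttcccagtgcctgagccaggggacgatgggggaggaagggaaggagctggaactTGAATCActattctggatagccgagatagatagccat
Csf1, chr3:107760470-107760719, minus strand: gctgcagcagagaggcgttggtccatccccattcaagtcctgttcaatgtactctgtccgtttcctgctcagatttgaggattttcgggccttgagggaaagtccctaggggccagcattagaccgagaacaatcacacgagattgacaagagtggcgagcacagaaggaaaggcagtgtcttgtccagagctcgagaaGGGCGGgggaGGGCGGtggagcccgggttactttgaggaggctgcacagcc
Vegfa, chr17:46032378-46032627, minus strand: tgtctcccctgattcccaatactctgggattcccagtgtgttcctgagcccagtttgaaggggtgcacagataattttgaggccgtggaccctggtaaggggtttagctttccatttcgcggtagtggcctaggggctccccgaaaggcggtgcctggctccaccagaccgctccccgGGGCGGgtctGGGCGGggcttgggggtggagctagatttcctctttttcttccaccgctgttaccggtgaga
Gdf15, chr8:70632457-70632706, minus strand: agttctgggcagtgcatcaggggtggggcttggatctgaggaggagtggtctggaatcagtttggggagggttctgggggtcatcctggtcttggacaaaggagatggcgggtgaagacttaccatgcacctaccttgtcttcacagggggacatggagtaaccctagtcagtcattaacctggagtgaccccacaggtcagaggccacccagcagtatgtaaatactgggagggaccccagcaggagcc
The Igf1 window holds 1 AP-1 match, a motif found in 6.75% of all 32851 RefSeq windows of this length. The Csf1 and Vegfa windows each hold 2 GC boxes, found in 32.7% of windows. The Gdf15 window holds neither. None of the 4 windows holds the hypoxia response core ACGTG (16.6% of windows), TGACGT (6.47%, which also holds ACGTG where a G follows it), TGATGNAA (3.45%), TATAAA (12.4%) or GAGGAAGT (2.44%). A match is a description of letters and not a bound site.

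The deposited cell type codes split the cells into 13289 microglia, 12841 macrophages (with monocytes), 2712 dendritic-like and 2116 neutrophil-like cells. Microglia-coded cells carried all 9 microglia markers of the list used. Macrophage-coded cells carried 7 of 9 macrophage and 4 of 8 monocyte markers, and also Pf4 and Mmp8, markers of platelets and neutrophils. Dendritic-like cells carried 5 of 8 dendritic markers and neutrophil-like cells 7 of 7 neutrophil markers. How the codes were assigned is not given in the sources used here. If they rest on the expression of these cells, the codes and the levels compared between them are not independent. Libraries held 155 to 3800 cells and 486649 to 33204422 unique molecular identifiers (UMIs, counted transcript molecules), and no cell barcode was shared between libraries. Median UMIs per cell were 3062 in microglia, 9144 in macrophages, 11361 in dendritic-like and 2154 in neutrophil-like cells. Levels are given as CPM, the UMIs of a gene counted per 1000000 UMIs of all genes, over the cells of 1 type in 1 library. Changes are log2 values from edgeR's quasi-likelihood test, with p-values adjusted (Benjamini-Hochberg) over all genes tested and a threshold of 0.05. The composition scaling of edgeR (TMM) matters in microglia: with plain total counts, the median of all genes against control moved to between -0.40 and -0.94 across the 5 time points, and with DESeq2-type scaling (RLE) to between -0.11 and -0.18. Among called genes, the share that was higher went with total counts from 51.2% to 22.6% at day 1, from 59.1% to 32.6% at day 2, from 53.3% to 22.9% at day 3, from 78.4% to 18.6% at day 10 and from 87.7% to 14.7% at day 21, and from 45.9% to 60.8% for day 3 against day 1. None of the called changes of the 10 genes reversed under any scaling.

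In microglia, 7 of the 10 genes passed the expression filter (Vegfa, Gdf3 and Bdnf did not). Against control, 5 of the 7 rose and 0 fell at day 1, where 23.9% of all 10801 genes tested rose, 22.7% fell and 46.6% changed. At day 2, 2 rose and 0 fell (17.6% of all genes rose, 12.2% fell, 29.7% changed). At day 3, 3 rose and 1 fell (20.1% and 17.6% of all genes, 37.6% in all). At day 10, 3 rose and 0 fell (8.06% of all genes rose, 2.22% fell, 10.3% changed), and at day 21, 3 rose and 0 fell (6.12% rose, 0.861% fell, 6.98% changed). At day 2 the share of the 7 genes called was close to that of all genes, and at days 10 and 21 it was above it. Igf1 and Csf1 were called at all 5 time points and Gdf15 at 4. The 3 day 1 libraries and the day 21 library were sequenced in a pool that held no control library, so at days 1 and 21 injury and pool cannot be told apart. No day 3 library shared a pool with a control either, and a pool term links them only through day 2 libraries. It left 2 of the 4 day 3 calls (Igf1 and Csf1). Day 21 is 1 library and each mixed or resident control is 1, so the spread behind the day 21 tests, and behind any fit of mixed libraries alone, is estimated from the other groups.

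**Figure D1:**
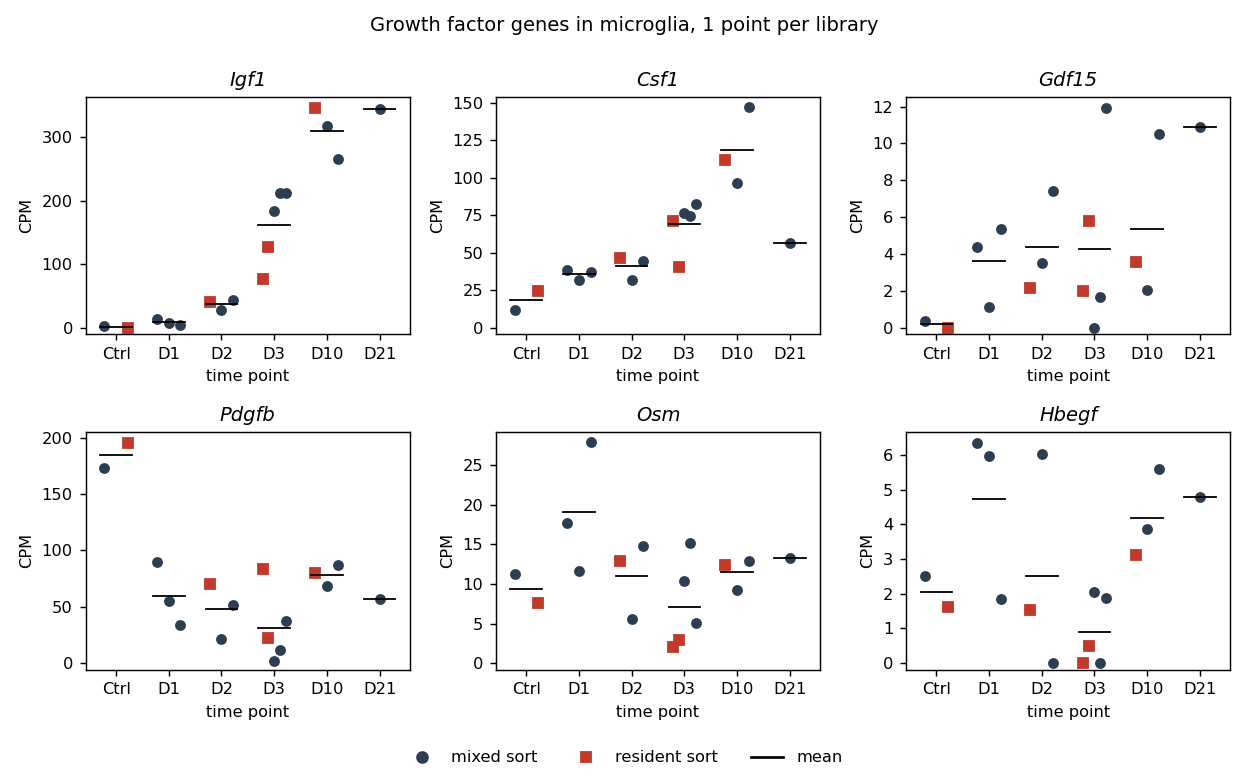
Levels of 6 genes in microglia-coded cells (y axis, CPM on each panel's own scale) by time after injury (x axis), 1 point per library coloured by sort, with a bar at the mean. Igf1 was 0 to 2.14 CPM in controls and 265 to 346 in the day 10 resident and mixed libraries, Csf1 was above both controls in every injured library drawn, and Pdgfb was below both controls in every injured library drawn.

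Igf1 rose in microglia from near absence in controls to its highest levels at days 10 and 21. It was 2.14 CPM (12 UMIs) and 0 CPM in the 2 control libraries, and 13.6, 7.69 and 4.64 CPM at day 1. At day 2 it was 40.9 (resident), 28.6 and 44.4 CPM, and at day 3 77.4 and 127 (resident), 183, 211 and 212 CPM. At day 10 it was 346 (resident), 318 and 265 CPM, and in the single day 21 library of these sorts 344 CPM. The small microglia-coded sums of 2 infiltrating libraries, which were not fitted, had 476 CPM (40 UMIs, D10_infiltrating 2) and 218 CPM (28 UMIs, D21_infiltrating 1). Every injured library of the resident and mixed sorts was above both controls, and the libraries of days 1, 2, 3 and 10 did not overlap from one time point to the next. The log2 change against control was 2.97 at day 1 (SE 0.66, edgeR adjusted p = 0.00157), 4.81 at day 2 (SE 0.63, adjusted p = 6.9e-05), 7.10 at day 3 (SE 0.65, adjusted p = 2.6e-06), 8.11 at day 10 (SE 0.66, adjusted p = 9.42e-07) and 8.73 at day 21 (SE 0.72, adjusted p = 9.9e-07). Because 1 control library held no Igf1 UMI, the size of the fold rests on the other. Without Ctrl_mixed 1 the control is 1 library with 0 UMIs, which allows up to 1.62 CPM. The 5 log2 changes were then 7.76, 9.66, 11.90, 12.96 and 13.67, fitted over that 0 and not to be read as sizes. Pooled over libraries, the ratio to control was 5.46 at day 1 (95% exact interval 3.00 to 10.9) and 188 at day 10 (108 to 365), intervals that cover counting error only.

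Between day 3 and day 1 Igf1 rose in microglia by 4.13 on the log2 scale (SE 0.42, adjusted p = 1.85e-05 in edgeR). It was one of 4 of the 7 genes called there: 2 rose (8.62% of all genes) and 2 fell (10.2%), where 18.8% of all genes changed. From day 3 to day 10 the log2 change was 1.01 (95% interval 0.29 to 1.73, adjusted p = 0.0787), not past the threshold. Within 1 sequencing pool, the mixed control had 2.14 CPM and the 2 day 10 mixed libraries 318 and 265 CPM. In another, the resident control had 0 CPM and the day 10 resident library 346 CPM. Both comparisons also crossed sex. The mixed control was female and the day 10 mixed libraries male, and the resident control was male and the day 10 resident library female. With pool as a term the day 10 change was 8.59 (SE 0.51, adjusted p = 1.91e-07). With mixed libraries alone the day 1 change was 2.34 (adjusted p = 0.129).

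Markers of other cells moved beside these results. In microglia-coded sums the 9 macrophage markers together were 6.79 to 14.6 CPM in controls, 550 to 1008 at day 1, 172 to 301 at day 10 and 381 at day 21, with 3 to 5 of the 9 at 0 in controls and none at 0 at day 1. The 8 monocyte markers together were 10.4 to 22.1 CPM in controls and 201 to 480 at day 1. The 9 microglia markers together were 26611 to 30015 CPM in controls, 4787 to 9100 at day 1 and 14366 to 16049 at day 10. Other lists moved in both directions. From controls to day 1 the 5 B cell markers together went from 231 to 313 CPM to 33.7 to 60.6, with 3 of the 5 at 0 in each of these libraries. The 5 astrocyte markers went from 123 to 155 CPM to 9.98 to 58.6, and the 7 neutrophil markers from 199 to 219 CPM to 38.1 to 106. The 8 dendritic markers were 25.4 to 32.5 CPM in controls, 43.5 to 56.3 at day 10 and 67.5 at day 21, and the 5 neuron markers 14.6 to 15.6 CPM in controls and 37.0 to 74.4 at day 2. Platelet and oligodendrocyte markers overlapped between controls and day 1. Their part in the changes of the 10 genes was not tested.

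In macrophages of the infiltrating and mixed libraries, the sorts fitted for this cell type, Igf1 also increased over time. It was 7.53 and 6.18 (infiltrating), 0 and 0 CPM (mixed) at day 1. At day 2 it was 7.47 (infiltrating), 40.6 and 52.3 CPM (mixed), at day 3 18.6 (infiltrating) and 123 CPM (mixed), and at day 10 154 and 107 (infiltrating), 103 and 53.2 CPM (mixed). At day 21 it was 54.4 (infiltrating) and 412 CPM (mixed). All day 10 and day 21 libraries of these sorts were above all day 1 libraries. The rise of Igf1 was 4.25 on the log2 scale at day 10 (SE 0.96, adjusted p = 0.0119 in edgeR) and 5.38 at day 21 (SE 1.12, adjusted p = 0.0221). The day 21 call rested on single libraries: it was lost without D21_mixed 1 (3.19) and without D1_infiltrating 2 (5.68), and with pool as a term (3.76, adjusted p = 0.262). Day 2 and day 3 gave log2 changes of 2.46 (95% interval 0.41 to 4.50) and 4.14 (1.92 to 6.37) and no call.

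In the macrophage time course 8 of the 10 genes were tested (Hbegf and Bdnf were not). Against day 1, 0 of the 8 were called at day 2 or day 3, where 0% of all 8577 genes tested were called by edgeR, 123 and 612 genes had an unadjusted p under 0.05, and DESeq2 called 0 and 5. With mixed libraries alone edgeR called 2 of the 8 at day 2 (Igf1 higher, Csf1 lower) and 5 at day 3 (Igf1 higher; Vegfa, Pdgfb, Csf1 and Osm lower), but day 3 is then 1 library against 2 of 28 and 54 macrophages, with the spread taken from the other time points. The share of all genes called with mixed libraries alone is not given here, so those counts cannot be read against it. At day 10, 1 of the 8 rose and 3 fell, where 7.31% of all genes rose, 7.04% fell and 14.4% changed. The day 10 libraries shared no pool with those of day 1, so time and pool cannot be told apart in that comparison. At day 21, 1 rose and 0 fell, where 1.95% of all genes rose, 1.61% fell and 3.56% changed. None was called for day 10 against day 3, where 0.0933% of all genes were higher, 0.583% lower and 0.676% changed. DESeq2 called 1 of the 8 there, and also called more of all genes than edgeR, with the counts given under processing below. With mixed libraries alone day 3 is 1 library, and the share of all genes called is not given here. In macrophage-coded sums the 9 microglia markers together were 291 to 1396 CPM at day 1, 998 to 3345 at day 10 and 2347 to 4761 at day 21. The 9 macrophage markers were 3808 to 14574 CPM at day 1 and 1198 to 3774 at day 10, and the 8 monocyte markers 4852 to 7833 at day 1 and 866 to 5778 at day 10. The 6 platelet markers were 277 to 6094 CPM at day 1 and 21.1 to 38.0 at day 10, and the 5 B cell markers were at most 25.8 CPM at day 1 and reached 244 at day 10, also without overlap. Endothelial markers (8.47 to 16.4 at day 1, 17.3 to 32.5 at day 10) and oligodendrocyte markers (38.1 to 87.5 and 92.7 to 137) also did not overlap. Their part in the changes was not tested.

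**Figure D2:**
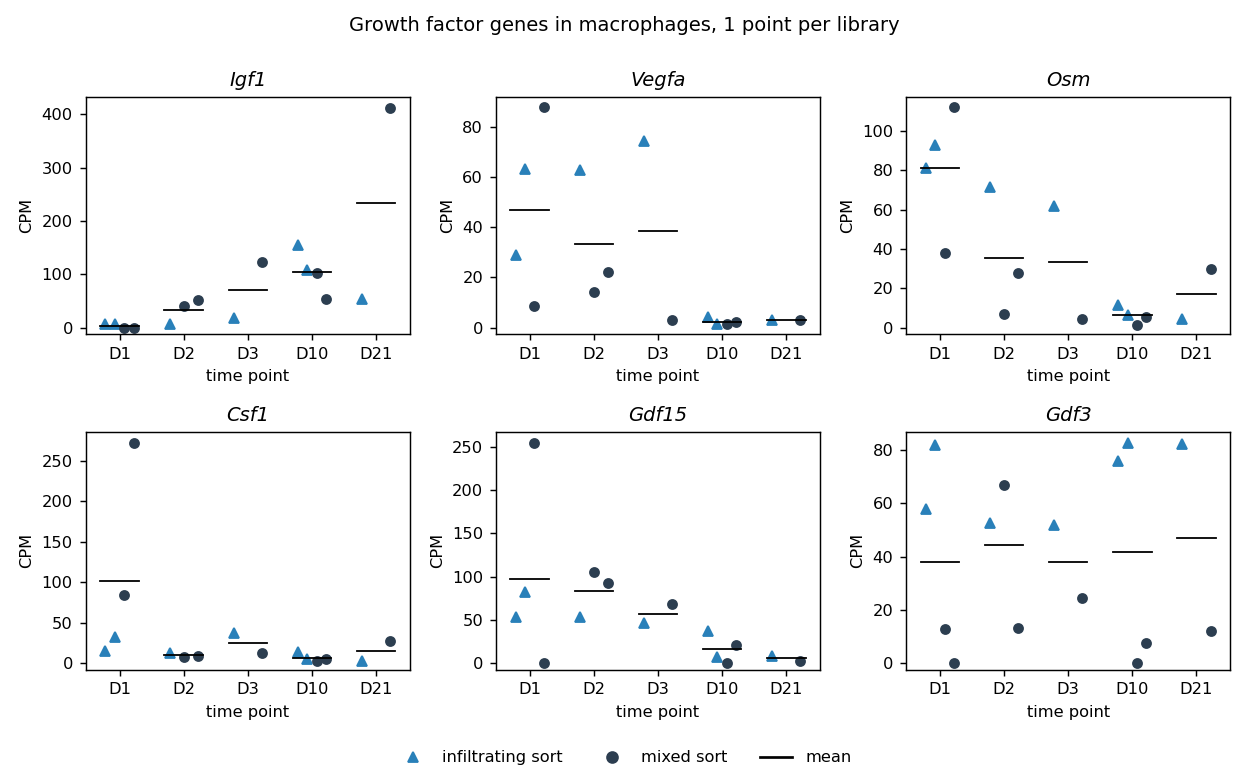
Levels of 6 genes in macrophage-coded cells (y axis, CPM on each panel's own scale) by day after injury (x axis), 1 point per library coloured by sort, with a bar at the mean. Vegfa was 8.47 to 87.6 CPM at day 1 and 1.63 to 4.46 at day 10 in the infiltrating and mixed libraries, while Gdf3 was 51.8 to 82.7 CPM over all infiltrating libraries.

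Across cell types within the same library, Igf1 was lower in macrophages than in microglia (log2 difference -0.93, SE 0.27, edgeR adjusted p = 0.00831), in 10 of the 14 libraries that held both. It was higher in macrophages in D2_resident 1 (46.1 against 40.9 CPM), D2_mixed 1 (40.6 against 28.6), D2_mixed 2 (52.3 against 44.4) and D21_mixed 1 (412 against 344). This comparison tested 9 of the 10 genes. In macrophages 3 of the 9 were higher and 3 lower, where 19.3% of all 9590 genes tested were higher, 15.9% lower and 35.2% different. The Igf1 difference was -0.70 (adjusted p = 0.106) when only sums of at least 50 cells were kept. Dendritic-like cells had 0 to 7.79 CPM of Igf1, lower than macrophages (log2 difference -5.73, SE 0.57, adjusted p = 8.68e-09), in 9 of 9 libraries. Neutrophil-like cells of the 4 libraries tested held 0 Igf1 UMIs among 2642619 (1164 cells), which allows up to 1.14 CPM. The macrophages of those 4 libraries held 645 Igf1 UMIs (14.5 CPM), at least 12.8-fold higher, with the floor of 3 UMIs taken over the group. That bound was 5.89-fold without D2_mixed 2, whose macrophages held 388 of the 645 UMIs, and 7.80-fold without D1_infiltrating 2.

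**Figure D3:**
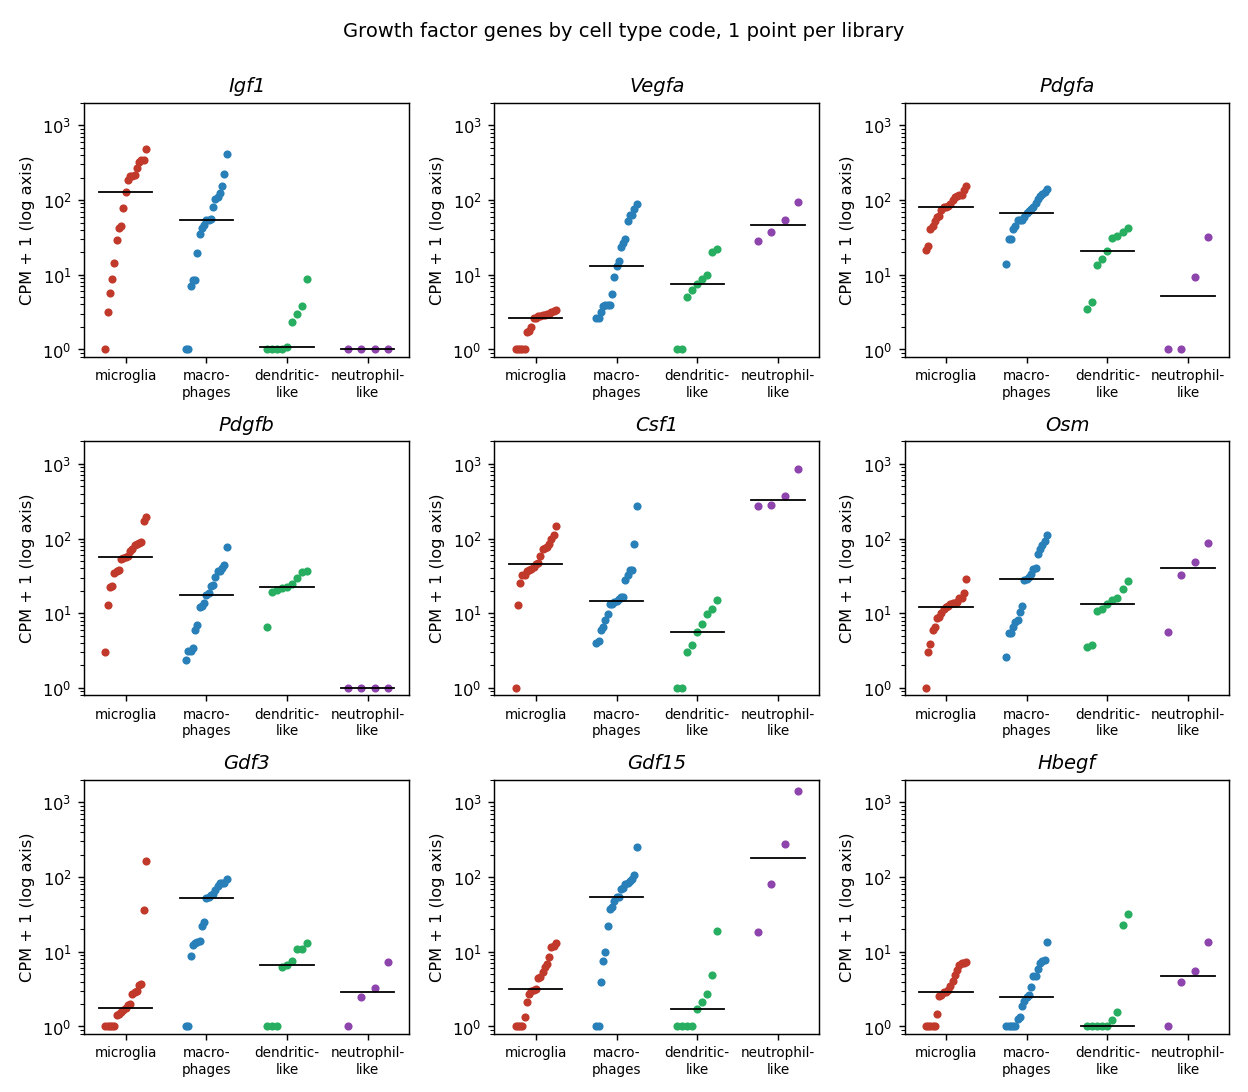
Levels of 9 genes in the 4 cell types (x axis within each panel; y axis, CPM plus 1 on a log scale), 1 point per library, with a bar at the median. Neutrophil-like cells stand highest for Csf1 (median 324 CPM) and at 0 for Igf1 and Pdgfb, and macrophages stand above microglia for Gdf3 (medians 51.8 and 0.770 CPM).

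Csf1, the ligand of the receptor Csf1r, rose in microglia at all 5 time points. It was 11.8 and 24.8 CPM in the controls, 38.7, 31.9 and 36.9 at day 1, and 46.6 (resident), 31.6 and 44.4 at day 2. At day 3 it was 71.5 and 40.4 (resident), 76.3, 74.3 and 82.4 CPM, at day 10 112 (resident), 96.6 and 147, and at day 21 56.8 CPM. The small sums of D10_infiltrating 2 and D21_infiltrating 1 held 3 and 0 UMIs of Csf1. None of the 15 injured libraries of the resident and mixed sorts overlapped the controls. The log2 change was 1.61 at day 1 (SE 0.35, edgeR adjusted p = 0.00122), 1.55 at day 2 (SE 0.35, adjusted p = 0.00348), 2.45 at day 3 (SE 0.34, adjusted p = 5.82e-05), 3.31 at day 10 (SE 0.35, adjusted p = 1.29e-05) and 2.75 at day 21 (SE 0.42, adjusted p = 0.00049). The day 2 call was lost without Ctrl_mixed 1 (1.16), and the day 1 call with mixed libraries alone (2.10, adjusted p = 0.0597). Within 1 pool Csf1 was 11.8 CPM in the mixed control against 96.6 and 147 at day 10, and within another 24.8 in the resident control against 112. As for Igf1, both comparisons also crossed sex.

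The later steps of Csf1 in microglia were smaller. From day 1 to day 3 it rose by 0.84 on the log2 scale (SE 0.26, adjusted p = 0.0319 in edgeR), a call lost on leaving out any of 6 libraries of days 1 and 3. From day 3 to day 10 it rose by 0.85 (SE 0.25, adjusted p = 0.0457). It was the one gene of 7 called in that contrast (2.96% of all genes were higher, 3.92% lower, 6.88% changed), and the call was lost on leaving out any of 14 of the 17 libraries. Over all alternatives for this contrast the call also went with pool as a term (0.99, adjusted p = 0.966) and with mixed libraries alone (0.64, adjusted p = 0.174).

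In macrophages Csf1 moved the other way. Day 1 levels were 15.4 and 32.0 (infiltrating), 84.7 and 272 CPM (mixed). Of the 112 UMIs behind the 272 CPM of D1_mixed 3 (54 cells), 69.6% came from 1 cell, and the 84.7 CPM of D1_mixed 1 rested on 20 UMIs. At day 2 Csf1 was 13.1 (infiltrating), 7.17 and 8.90, at day 3 37.5 (infiltrating) and 12.5, at day 10 13.4 and 4.96 (infiltrating), 3.25 and 5.55, and at day 21 2.94 (infiltrating) and 26.9 CPM. Every infiltrating and mixed day 10 library was below every day 1 library (the macrophages of D10_resident 1, not fitted, had 15.8 CPM), and Csf1 fell by 3.60 on the log2 scale at day 10 (SE 0.91, edgeR adjusted p = 0.0193). The call was lost without D10_mixed 1 (-3.37), without D10_mixed 2 (-3.47) and with a replicate block (-2.56, adjusted p = 0.0669).

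Neutrophil-like cells carried the most Csf1 relative to their UMIs. Levels were 368 and 842 CPM in the 2 day 1 infiltrating libraries, 280 in the day 2 infiltrating library and 270 in D2_mixed 2, against a macrophage median of 13.4 over 19 libraries. Csf1 was higher than in macrophages in 4 of 4 libraries, by a log2 difference of 4.47 (SE 0.56, edgeR adjusted p = 1.39e-07). With every cell thinned to 1000 UMIs, the share of neutrophil-like cells with a Csf1 UMI was 17.9% to 43.3% by library (28.7% to 55.7% unthinned). The median share was 1.43% of macrophages (9.70% unthinned), 3.96% of microglia (11.3% unthinned) and 0% of dendritic-like cells (3.03% unthinned). Within libraries Csf1 was lower in macrophages than in microglia (log2 difference -1.70, SE 0.39, adjusted p = 0.000889, 11 of 14 libraries). It was also lower in dendritic-like cells than in macrophages (-1.72, SE 0.53, adjusted p = 0.0139, 8 of 9 libraries), a call lost without D3_infiltrating 1 (-1.58).

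Against macrophages of the same library, 1 of the 9 genes tested was higher in neutrophil-like cells and 4 were lower, where 22.2% of all genes were higher, 28.8% lower and 51% different. Besides Igf1 and Csf1, Pdgfa was lower (-3.76, SE 0.60, edgeR adjusted p = 6.47e-06) and Gdf3 was lower (-4.13, SE 0.89, adjusted p = 0.000297), both in 4 of 4 libraries. Pdgfb held 0 UMIs in neutrophil-like cells against 160 UMIs (3.60 CPM) in macrophages of the same libraries, at least 3.17-fold higher (1.80-fold without D1_infiltrating 2, which held most of the neutrophil-like UMIs). Its fitted call was lost without D2_infiltrating 1. Vegfa differed by -0.00 (95% interval -0.68 to 0.67) and Osm by -0.49 (-1.62 to 0.64).

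Gdf15, the stress-induced member of the transforming growth factor beta superfamily, was scarce in control microglia and higher after injury. Only 2 UMIs of 7451300 were counted in the controls (0.357 and 0 CPM). Injured libraries had 4.38, 1.14 and 5.34 CPM at day 1, 2.18 (resident), 3.51 and 7.40 at day 2, and 1.99 and 5.78 (resident), 0, 1.69 and 11.9 at day 3. At day 10 Gdf15 was 3.55 (resident), 2.04 and 10.5, and at day 21 10.9 CPM. All but 1 of these libraries were above both controls. Pooled over libraries, the ratio to control was 14.1 at day 1 (95% exact interval 3.70 to 120), 23.4 at day 3 (5.99 to 201), 20.5 at day 10 (5.45 to 173) and 40.5 at day 21 (10.7 to 344), counting error only. The edgeR test called day 1 (log2 3.98, SE 1.27, adjusted p = 0.0167), day 3 (4.49, SE 1.25, adjusted p = 0.00983), day 10 (4.50, SE 1.20, adjusted p = 0.0203) and day 21 (6.06, SE 1.27, adjusted p = 0.00538), but not day 2 (3.44, 95% interval 0.69 to 6.20, adjusted p = 0.0553).

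The Gdf15 calls in microglia rested on the few control UMIs and on few injured cells, and were not stable. In D21_mixed 1, 1 cell gave 50% of the 50 UMIs, and 0.480% of 1041 cells held any. In D10_mixed 2, 1 cell gave 46.7% of 45 UMIs, and 1.20% of 918 cells held any. The UMIs were more spread in D3_mixed 3, where 1 cell gave 15.8% of 19 UMIs. The exact intervals above do not allow for such clumping. Without Ctrl_mixed 1 all 4 were lost (log2 6.54, 7.06, 7.09 and 8.74 at days 1, 3, 10 and 21). Without Ctrl_resident 1 those of days 1, 3 and 10 were lost (3.42, 3.91 and 3.92). The day 10 call was also lost without D10_resident 1 (4.85) and without D10_mixed 2 (3.72). With mixed libraries alone all 4 were lost (3.09, 3.69, 3.66 and 5.60, adjusted p from 0.0824 to 0.666), and with pool as a term that of day 3 (5.96, adjusted p = 0.441). Leaving out the cells of cluster 2, which span the microglia and macrophage codes, took the day 1 change to 2.39 (adjusted p = 0.244) and the day 10 change to 4.28 (adjusted p = 0.0697).

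Macrophages carried more Gdf15 than microglia. Day 1 levels were 53.1 and 82.7 (infiltrating), 254 and 0 CPM (mixed), and day 2 levels 53.0 (infiltrating), 105 and 92.9. Of the 60 UMIs behind the 254 CPM of D1_mixed 1 (28 cells), 81.7% came from 1 cell. The 0 of D1_mixed 3 (54 cells) allows up to 7.30 CPM. Day 3 gave 46.2 (infiltrating) and 67.8, day 10 36.9 and 6.61 (infiltrating), 0 and 21.1, and day 21 8.83 (infiltrating) and 2.99 CPM. The day 10 and day 1 libraries overlapped, and the change was not called (log2 -2.27, 95% interval -4.28 to -0.27, edgeR adjusted p = 0.116). Within libraries Gdf15 was higher in macrophages than in microglia by 3.12 (SE 0.51, adjusted p = 9.89e-06), in 11 of 14 libraries. Dendritic-like cells were lower than macrophages (log2 difference -5.05, SE 0.71, adjusted p = 1.56e-06, 9 of 9 libraries). Neutrophil-like cells had 80.0, 275, 17.5 and 1424 CPM in D1_infiltrating 1, D1_infiltrating 2, D2_infiltrating 1 and D2_mixed 2, a spread in which the difference from macrophages was not called (1.27, 95% interval -0.08 to 2.62, adjusted p = 0.111).

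Gdf3 was counted mainly in macrophages. In macrophages of the infiltrating sort it was 57.8 and 81.8 CPM at day 1, 52.6 at day 2, 51.8 at day 3, 76.1 and 82.7 at day 10 and 82.4 at day 21. In macrophages of mixed libraries it was 12.7 and 0 at day 1, 66.9 and 13.1 at day 2, 24.3 at day 3, 0 and 7.76 at day 10 and 11.9 at day 21. The 4 resident libraries with enough macrophages had 11.3 to 92.7 CPM, so the sorts overlapped within this cell type. In microglia Gdf3 was 0 in both controls, which over 7451300 UMIs allows up to 0.403 CPM, and at most 2.66 CPM in the 17 resident and mixed libraries. It was 35.7 CPM (3 UMIs) in D10_infiltrating 2 and 164 CPM (21 UMIs) in D21_infiltrating 1. In those 2 sums of microglia-coded cells the 9 macrophage markers together were 1403 and 1138 CPM, and their part was not tested.

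Within libraries Gdf3 was higher in macrophages than in microglia by 3.28 on the log2 scale (SE 0.52, edgeR adjusted p = 7.34e-06), in 11 of 14 libraries. Dendritic-like cells were lower than macrophages (-3.46, SE 0.49, adjusted p = 2.13e-06, 9 of 9 libraries). Over time in macrophages Gdf3 gave no call, and the day 10 difference from day 1 was -0.14 (95% interval -2.16 to 1.88).

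Vegfa, the endothelial growth factor, was lower in macrophages at day 10 than at day 1. It was 28.8 and 63.0 (infiltrating), 8.47 and 87.6 CPM at day 1, 62.8 (infiltrating), 14.3 and 22.3 at day 2, and 74.3 (infiltrating) and 2.99 at day 3. At day 10 it was 4.46 and 1.65 (infiltrating), 1.63 and 2.22, and at day 21 2.94 (infiltrating) and 2.99 CPM. All infiltrating and mixed libraries of days 10 and 21 were below all day 1 libraries. The lowest day 1 value, 8.47 CPM in D1_mixed 1, rested on 2 UMIs in 28 cells, under its floor of 12.7 CPM. Late values rested on 18 UMIs in D10_infiltrating 1 and on 1 or 2 UMIs in each other library. The gap to D1_mixed 1 is therefore within counting error. The fall at day 10 was 4.01 on the log2 scale (log2 change -4.01, SE 0.93, edgeR adjusted p = 0.0134). The day 21 value was -3.95 (95% interval -7.04 to -0.87, adjusted p = 0.127).

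In microglia Vegfa was at most 2.39 CPM in every library and did not pass the filter. Pooled over libraries, its ratio to control was 1.35 at day 1 (95% exact interval 0.663 to 2.93) and 0.869 at day 10 (0.386 to 2.01), counting error only. Within libraries it was higher in macrophages by 2.83 (SE 0.40, edgeR adjusted p = 1.15e-06), in 13 of 14 libraries. Neutrophil-like cells had 27.4, 53.4, 36.5 and 93.6 CPM, and dendritic-like cells were lower than macrophages (-1.94, SE 0.38, adjusted p = 0.000192, 8 of 9 libraries).

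Pdgfb, one chain of platelet-derived growth factor, was high in control microglia and lower after injury. It was 173 and 195 CPM in the controls, 89.7, 55.0 and 34.1 at day 1, 70.6 (resident), 21.6 and 51.8 at day 2, and 83.4 and 22.1 (resident), 2.06, 11.8 and 37.1 at day 3. At day 10 it was 79.8 (resident), 68.0 and 87.3, and at day 21 56.8 CPM. All injured libraries of the resident and mixed sorts were below both controls in CPM, but of the 5 time points the edgeR test called day 3 alone (log2 -1.97, SE 0.56, adjusted p = 0.0113). The others ranged from -0.61 (95% interval -1.87 to 0.66) at day 10 to -1.50 (-2.85 to -0.15) at day 2. The TMM factors were 1.38 and 1.46 in the controls and 0.84 to 0.91 at day 1, so a plain CPM ratio and a fitted change differ here. The day 3 call was lost without Ctrl_resident 1 (-1.66), with pool as a term (-0.56, adjusted p = 0.849) and with mixed libraries alone (-3.53, adjusted p = 0.207).

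Between cell types Pdgfb was lower in macrophages than in microglia (log2 difference -1.79, SE 0.32, edgeR adjusted p = 4.81e-05), in 13 of 14 libraries. It was higher in dendritic-like cells than in macrophages (1.29, SE 0.38, adjusted p = 0.0109), in 7 of 9 libraries. It was the one gene of 9 that was higher there and 7 were lower, where 13.1% of all genes were higher, 13.9% lower and 27% different. In the 9 dendritic-like sums it was 5.59 to 35.8 CPM (median 21.5).

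Pdgfa, the other chain, gave no call over time. In microglia it was 80.6 and 61.0 CPM in the controls and 20.3 to 155 CPM over the injured libraries. The day 1 difference was 0.55 (95% interval -0.44 to 1.55) and the day 10 difference 1.37 (0.41 to 2.34, edgeR adjusted p = 0.0649), and none of its 5 changes was called. In macrophages the day 10 difference from day 1 was -0.62 (-1.75 to 0.50). Macrophages and microglia of the same library differed by -0.45 (-0.94 to 0.04, adjusted p = 0.15). Dendritic-like cells had less than macrophages (-1.81, SE 0.31, adjusted p = 2.68e-05, 9 of 9 libraries).

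Osm, the interleukin 6 family cytokine, fell in macrophages between day 1 and day 10. It was 81.0 and 93.1 (infiltrating), 38.1 and 112 CPM at day 1, 71.3 (infiltrating), 7.17 and 27.9 at day 2, and 62.0 (infiltrating) and 4.49 at day 3. At day 10 it was 11.6 and 6.61 (infiltrating), 1.63 and 5.55, and at day 21 4.41 (infiltrating) and 29.9 CPM. Every infiltrating and mixed day 10 library was below every day 1 library, and Osm fell by 3.68 on the log2 scale (SE 0.80, edgeR adjusted p = 0.0105). At day 21 the log2 change was -2.58 (95% interval -4.86 to -0.30, adjusted p = 0.17).

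In microglia Osm was 11.3 and 7.55 CPM in the controls, 17.7, 11.7 and 27.9 at day 1, and 1.99 and 2.89 (resident), 10.3, 15.2 and 5.03 at day 3. The day 1 rise was 1.54 (SE 0.57, edgeR adjusted p = 0.0333). It was lost without Ctrl_resident 1 (0.98), D1_mixed 3 (1.19), D2_mixed 2 (1.47), D10_resident 1 (1.42) or D10_mixed 1 (1.50). It was also lost with RLE scaling (1.37, adjusted p = 0.0558), with DESeq2 (1.35, adjusted p = 0.0579), with total counts (0.82, adjusted p = 0.234) and with mixed libraries alone (0.34, adjusted p = 0.919). From day 1 to day 3 Osm fell by 1.77 (SE 0.47, adjusted p = 0.0156), a call lost without D1_mixed 3 (-1.40) and without D3_resident 2 (-1.38).

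Hbegf and Bdnf were rarely counted. In microglia Hbegf was 2.50 and 1.62 CPM in the controls and 6.34, 5.98 and 1.86 at day 1, and its day 1 rise of 2.12 (SE 0.79, edgeR adjusted p = 0.0366) was lost on leaving out any of 7 libraries (1.65 to 2.23). It fell by 2.44 from day 1 to day 3 (SE 0.75, adjusted p = 0.0315), a call lost without any of 5 libraries. In dendritic-like cells Hbegf was 31.1 CPM in D1_infiltrating 2 (48 UMIs, in 13.6% of 176 cells) and 21.8 CPM in D2_infiltrating 1 (25 UMIs, in 15.6% of 90 cells), and at most 0.582 CPM in the other 7. Bdnf gave 9 UMIs in the sums analysed, 6 in microglia of 4 libraries and 3 in macrophages of 2, and its level was not measurable at this depth.

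**Figure D4:**
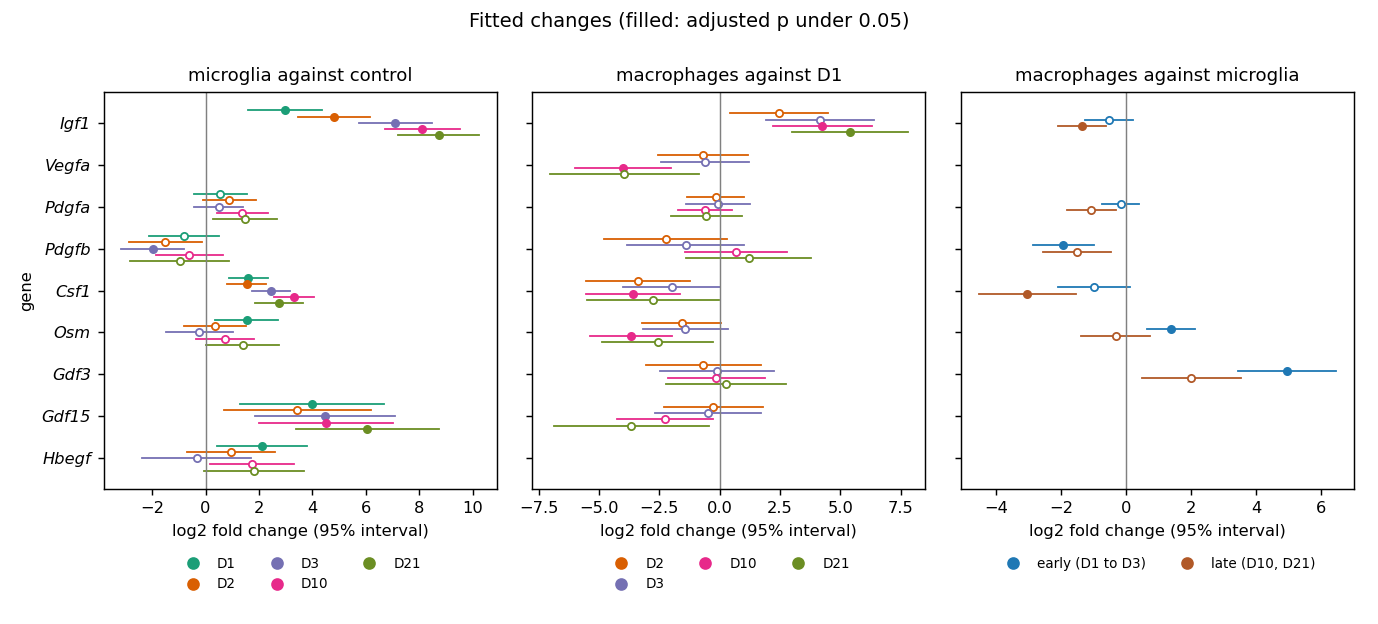
Fitted log2 changes of the genes tested (x axis, with 95% intervals; filled points have an edgeR adjusted p under 0.05) in microglia against control, in macrophages against day 1, and in macrophages against microglia at days 1 to 3 and at days 10 and 21. Igf1 in microglia goes from 2.97 at day 1 to 8.73 at day 21, and Vegfa, Csf1 and Osm in macrophages are filled below 0 at day 10.

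The gap between macrophages and microglia of the same library was also fitted apart for 8 libraries of days 1 to 3 and 6 libraries of days 10 and 21, with 6 of the 10 genes tested. Early, Gdf3 (4.95, SE 0.72, edgeR adjusted p = 2.37e-05) and Osm (1.39, SE 0.35, adjusted p = 0.00393) were higher in macrophages and Pdgfb lower (-1.92, SE 0.45, adjusted p = 0.00227). That is 2 of 6 higher and 1 lower, where 17.9% of all 7358 genes tested were higher, 20.9% lower and 38.8% different. Late, Igf1 (-1.37, SE 0.35, adjusted p = 0.0142) and Csf1 (-3.03, SE 0.72, adjusted p = 0.00804) were lower in macrophages and 0 were higher, 2 of 6, where 5.07% of all genes were higher, 5.9% lower and 11% different. Both late calls were lost without D10_mixed 1 (-1.30 and -2.71) and without D10_mixed 2 (-1.13 and -2.54). In cells thinned to 1000 UMIs, 2 genes were tested and 0 called, early and late. The late Igf1 difference there was -0.61 (edgeR adjusted p = 0.26). Leaving out 1 library at a time gave 1 to 4 early calls and 0 to 3 late calls. The test of late minus early called 0 of the 6 genes, where 11.3% of all genes differed, so in that fit none of these gaps was shown to change with time. DESeq2 called Osm (-1.88, adjusted p = 0.0452), and with no expression filter edgeR called Vegfa, Csf1, Osm, Gdf3 and Gdf15, all with macrophages lower relative to microglia late than early. In the filtered fit the nearest were Osm (-1.71, 95% interval -2.99 to -0.44, adjusted p = 0.0767) and Gdf3 (-2.94, -5.15 to -0.74, adjusted p = 0.079).

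The sort itself gives a comparison that does not use the cell type codes. All cells of the 7 infiltrating libraries were set against all cells of the 5 resident libraries, with time and sex as terms. In such whole-library sums, fewer cells of a type and less RNA per cell cannot be told apart. Only days 2, 3 and 10 held both sorts, so with time as a term the sort contrast comes from those days. At day 2 it is 1 library per sort, and these differ in sex label and sequencing pool. Gdf3 was 46.7 and 69.9 CPM at day 1, 41.0 at day 2, 30.7 at day 3, 68.3 and 52.3 at day 10 and 69.1 at day 21 in infiltrating libraries. In resident libraries it was 0 in the control, 10.1 at day 2, 5.24 and 7.45 at day 3 and 31.8 at day 10. At each shared time point the infiltrating libraries were above the resident ones. Gdf3 was higher in the infiltrating sort (1.62, SE 0.27, edgeR adjusted p = 0.00811), and Igf1 (-2.41, SE 0.43, adjusted p = 0.012) and Pdgfa (-1.05, SE 0.26, adjusted p = 0.0337) were lower. That is 1 higher and 2 lower of 8 genes tested, where 5.02% of all 10074 genes were higher, 5.67% lower and 10.7% different.

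Igf1 in these whole-library sums was 5.69 CPM infiltrating and 41.2 resident at day 2, 9.82 against 53.4 and 102 at day 3, and 138 and 96.4 against 307 at day 10. All 3 sort calls depended on few libraries. Igf1 was lost without D2_infiltrating 1 or D2_resident 1 (-2.37 each). Gdf3 was lost without either of these (1.30 each) or without D3_infiltrating 1 (1.49), and Pdgfa on leaving out any of 6 libraries. Counting the day 3 library with conflicting labels as infiltrating kept all 3 and added Pdgfb (-1.57, adjusted p = 0.0463) and Osm (1.07, adjusted p = 0.0466). Counting it as resident removed all 3 (Igf1 -2.27, adjusted p = 0.114; Gdf3 1.20, adjusted p = 0.195; Pdgfa -1.01, adjusted p = 0.114).

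Other genes of each pathway came from lists of 99 further genes, and the counts below include the members of the 10 that each list holds. Of the insulin-like growth factor genes, 8 of 13 were tested in microglia. At day 1, 3 rose and 3 fell, where 23.9% of all genes rose and 22.7% fell (median log2 change -1.11, against -0.01 for all genes). The receptor Igf1r fell by 2.11 (SE 0.46, edgeR adjusted p = 0.00144) and the insulin receptor Insr by 4.23 (SE 0.69, adjusted p = 0.000154), while Igf2r, which clears Igf2, rose by 3.74 (SE 0.80, adjusted p = 0.00114). At day 10, 3 rose and 0 fell, where 8.06% of all genes rose and 2.22% fell (median 0.26), among them the binding protein Igfbp5 (4.23, SE 1.12, adjusted p = 0.0206); with total counts this became 3 and 3 (median -0.33). In macrophages at day 10 against day 1, 2 of 7 rose and 2 fell (7.31% and 7.04% of all genes), with Igfbp4 up by 3.85 (SE 0.87, adjusted p = 0.0117) and Igf2r down (-2.37, SE 0.52, adjusted p = 0.0107). In neutrophil-like cells Igf1r was higher than in macrophages by 4.14 (SE 0.37, adjusted p = 3.23e-10), beside the absence of counted Igf1.

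Of the colony-stimulating factor genes, 5 of 8 were tested. In microglia Csf1r fell by 1.26 at day 1 (SE 0.30, edgeR adjusted p = 0.0026), by 1.65 at day 2 (SE 0.29, adjusted p = 0.000627) and by 0.94 at day 3 (SE 0.26, adjusted p = 0.0098). At days 10 and 21, where its ligand Csf1 was also called higher, Csf1r was not called (-0.69, 95% interval -1.29 to -0.09, and -0.44, -1.28 to 0.39). The list counted 1 rise and 2 falls at day 1 (23.9% and 22.7% of all genes), 2 and 2 at day 2 (17.6% and 12.2%) and at day 3 (20.1% and 17.6%), and 2 and 0 at day 10 (8.06% and 2.22%) and day 21 (6.12% and 0.861%). Csf1r was lower in macrophages than in microglia (log2 difference -1.95, SE 0.19, adjusted p = 5.88e-10), and lower in neutrophil-like cells than in macrophages (-1.02, SE 0.34, adjusted p = 0.0128), where Csf3r, the granulocyte receptor, was higher by 5.89 (SE 0.33, adjusted p = 1.01e-14). In that comparison the list's median was 1.42, against -0.19 for all genes.

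Of the vascular and platelet-derived growth factor genes, 8 of 16 were tested. In microglia 1 rose and 2 fell at day 1 (23.9% and 22.7% of all genes) and 3 rose and 0 fell at day 10 (8.06% and 2.22%), where the median was 1.33 (0.77 with total counts, with which 1 rose). The Vegfa receptor Flt1 rose by 4.70 at day 10 (SE 0.61, edgeR adjusted p = 8.65e-05) and the co-receptor Nrp2 by 1.64 (SE 0.41, adjusted p = 0.0141; its call was lost with total counts). In macrophages at day 10 Flt1 rose by 2.19 (SE 0.54, adjusted p = 0.0179) and Nrp2 fell by 2.43 (SE 0.41, adjusted p = 0.00293). Compared with macrophages, 6 of the 8 were lower and 1 higher in dendritic-like cells (13.9% and 13.1% of all genes, median -1.56), and 6 lower and 0 higher in neutrophil-like cells (28.8% and 22.2%, median -3.03).

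A list of 14 genes that rise in low oxygen was read beside Vegfa, itself a known target of that response. In macrophages at day 10 against day 1, 13 were tested, 6 fell and 0 rose, where 7.04% of all genes fell and 7.31% rose (median -1.41, against 0.01 for all genes). The glucose transporter Slc2a1 fell by 2.55 (SE 0.47, edgeR adjusted p = 0.00484), Bnip3, a mitophagy receptor, by 2.49 (SE 0.62, adjusted p = 0.0184) and the glycolytic enzyme Pgk1 by 1.66 (SE 0.41, adjusted p = 0.0177). In microglia at day 1 against control 7 of the 14 rose and 2 fell, where 23.9% of all genes rose and 22.7% fell (median 1.85; with total counts 6 rose and 3 fell). The cytokine Mif rose by 4.24 (SE 0.36, adjusted p = 9.99e-07), Pgk1 by 3.40 (SE 0.39, adjusted p = 9.53e-06) and the lactate dehydrogenase gene Ldha by 3.23 (SE 0.37, adjusted p = 9.27e-06). Vegfa itself stayed at 2.39 CPM or below in those cells.

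Of the interleukin 6 family, 9 of 13 were tested in microglia. At day 1, 1 rose and 3 fell (23.9% and 22.7% of all genes). At day 3, 0 rose and 6 fell (20.1% and 17.6% of all genes; median -1.98, against -0.04), and at day 10, 0 rose and 4 fell (8.06% and 2.22%). The receptor chain Lifr fell by 2.91 at day 3 (SE 0.51, edgeR adjusted p = 0.00042) and Il6ra by 2.74 (SE 0.42, adjusted p = 0.000145). In macrophages at day 10, 0 of 7 rose and 3 fell (7.31% and 7.04% of all genes): Osm, the feedback inhibitor Socs3 (-3.28, SE 0.51, adjusted p = 0.00211) and the transcription factor Stat3 (-1.33, SE 0.33, adjusted p = 0.0192). Macrophages were above microglia for 3 of 8 genes of this list and below for 0 (19.3% and 15.9% of all genes, median 0.27).

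Of the transforming growth factor beta superfamily list, 7 of 18 were tested in microglia. At day 1, 1 rose (Gdf15) and 4 fell, where 23.9% of all genes rose and 22.7% fell (median -2.07), and at day 3 1 rose and 4 fell, where 20.1% rose and 17.6% fell (median -1.20). The 4 that fell at day 1 were receptors: Tgfbr1 (-3.66, SE 0.54, edgeR adjusted p = 6.78e-05), Acvr2b (-3.32, SE 0.54, adjusted p = 0.000146), Acvr2a (-2.82, SE 0.59, adjusted p = 0.00103) and Tgfbr2 (-2.07, SE 0.42, adjusted p = 0.000773). Tgfbr1 and Tgfbr2 rose in macrophages at day 10 against day 1 (1.40, SE 0.44, adjusted p = 0.0483, and 1.47, SE 0.47, adjusted p = 0.049), calls lost with total counts. Of the epidermal growth factor family, 4 of 16 were tested in microglia and 1, Hbegf, was called at day 1 (46.6% of all genes). Tgfa, another ligand of that receptor, was lower in macrophages than in microglia (-3.46, SE 0.45, adjusted p = 4.53e-07) and lower in the infiltrating than in the resident sort (-4.36, SE 0.60, adjusted p = 0.0042). Of the 11 neurotrophin genes, 2 were tested in microglia at day 1, and the sorting receptor Sort1 fell by 1.44 (SE 0.38, adjusted p = 0.00493). The counts and medians of these lists are descriptions and not tests of the lists.

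The deposited clusters were made from the same cells, so their levels are a description only. Cluster 1 held all 1887 control cells and no injured cell. Clusters drew on different libraries and time points, and no order between them is read from these levels. In injured microglia Igf1 had a median over libraries of 247 CPM in cluster 2 (6.62 to 565), 244 in cluster 4 (62.7 to 310), 172 in cluster 3 (34.9 to 410) and 147 in cluster 5 (3.19 to 378), against 1.07 in cluster 1. Clusters 2 and 3 also held 123 and 348 macrophage-coded cells. In macrophage cluster 9 Igf1 was 132 CPM (30.2 to 228). Macrophage cluster 12, from 5 libraries, had 62.1 CPM of Vegfa (35.6 to 101) and 157 CPM of Osm (97.5 to 201). Gdf3 was 105 CPM in cluster 9 and 90.7 in cluster 8. Csf1 was 324 CPM in the neutrophil-like cluster 16 and 103 in microglia cluster 4, Gdf15 177 in cluster 16 and 94.2 in cluster 11, and Pdgfb 184 in cluster 1 and 113 in cluster 4. Cluster 14 was too small to rank: its levels rest on 72 cells of 2 libraries, with 5 UMIs of Vegfa (7.48 and 117 CPM) and 11 of Csf1 (37.4 and 175 CPM).

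Genes whose levels were most like each member were found over 54 sums of a cell type in a library, those of the library with conflicting labels included, among 5550 genes with a mean of at least 20 CPM, on log2(CPM + 5). These correlations describe sums that share libraries and cell types and carry no p-value. For Igf1 they were Gm1673 (r = 0.907) and the apolipoprotein genes Apoc1 (0.866) and Apoc4 (0.854). For Vegfa they were Thbs1 (0.908), a matrix protein gene, Cd44 (0.907) and Rhov (0.896). For Csf1 they were Hcar2 (0.867) and the chemokine genes Ccl4 (0.821) and Ccl3 (0.818). For Gdf3 they were Ms4a7 (0.771), Lyz2 (0.734) and the lipid-binding protein gene Fabp4 (0.694). For Gdf15 they were Fnip2 (0.849), Atp6v0e (0.848) and Bri3 (0.840), for Osm Il1rn (0.800), Furin (0.783) and Ccdc71l (0.782), for Pdgfa Tmem37 (0.886) and C3ar1 (0.850), and for Pdgfb Mef2c (0.873) and Lair1 (0.817). Hbegf had no gene above 0.592 (Bcl2a1a). Among the members the closest pair was Osm and Vegfa (0.765), followed by Gdf15 and Vegfa (0.640).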

How the data were processed

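Counts of UMIs per gene and cell were deposited by the authors as 1 raw matrix per library, with a table of cell type codes, clusters and sequencing pools per cell. Per the submitters' processing notes, Cell Ranger 3.1.0 and the builds GRCm38 and mm10 were named, with no role given; cell filters are not given in the sources used here. The 2 further matrices of the whole series were not used here. Counts were summed per library and cell type code where at least 20 cells were present. No doublets were called and no free RNA was subtracted.

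The sums were tested with edgeR 4.0.16 (R 4.3.3; TMM, filterByExpr, quasi-likelihood test) with Benjamini-Hochberg adjustment over all genes tested. Microglia of resident and mixed libraries and macrophages of infiltrating and mixed libraries were fitted with time point and sex as terms, cell types with the library as a block, and sorts with time point and sex. One day 2 infiltrating library labelled female carries the male code in the deposited table, and the label was used. Depth ranged from 486649 to 33204422 UMIs per library, and intervals from counts (95%, exact) and the floor of 3 counts cover counting error only. The fitting steps were tested on simulated data. Genes named were the 10 members, up to 4 called genes of each list with the largest changes, and the 3 genes most like each member, of which some are not reported here. The members and lists were chosen with earlier results of these data known. Alternatives were RLE or total-count scaling, DESeq2 1.42.0, no expression filter, at least 50 cells, terms for pool, sort or replicate number, mixed libraries alone, thinning to 1000 UMIs, both placements of the library with conflicting labels, leaving out cluster 2, and leaving out each library. Total-count scaling and leaving out cluster 2 were chosen after seeing the data. Replicate numbers do not pair libraries: between the day 1 and day 3 mixed libraries, same-numbered deviations in microglia correlated at -0.002, 0.154 and 0.137.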

Additional observations from a re-analysis of the deposited data

Results flagged for a closer look

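Of 34 groups of 4 to 10 libraries checked for a library that stands apart from its group, 3 held one, and chance gives about 1 in 20. In microglia at day 3, Csf1 was 40.4 CPM in D3_resident 2, with the next library at 71.5. In macrophages of the 4 infiltrating and mixed day 10 libraries, Hbegf was 0.248 CPM in D10_infiltrating 1, from 1 UMI, and 0 in the others; D10_resident 1, outside that group, had 3.71 CPM (4 UMIs). In neutrophil-like cells Csf1 was 842 CPM in D1_infiltrating 2, with the next library at 368.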

How the results depend on the processing

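The 10 genes gave 54 called changes over all comparisons, recomputed in 1339 alternatives: 1223 kept the call, 116 lost it and 0 reversed, and 30 of the 54 changes kept their call in every alternative run. The precision is limited by 1 or 2 libraries in several groups and by few UMIs of Gdf15, Hbegf and Bdnf in microglia. Of 468 recomputed counts of called genes, 385 stayed within 1.5 times. The others follow, and unless stated otherwise their cause was not tested. For most, the share of all genes called in the same setting is not given here, so they show only how calls moved. With no filter all 10 genes were tested.

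In microglia, 5 calls at day 1 became 3 with RLE scaling, DESeq2, at least 50 cells, total counts, sort as a term or without cluster 2, and 0 with mixed libraries alone (fewer libraries). The 2 calls at day 2 became 5 with no filter, the 4 at day 3 became 2 with pool as a term or mixed libraries alone, and the 3 at day 10 became 5 with no filter. For day 3 against day 1, 4 became 2 with sort as a term or mixed libraries alone. For day 10 against day 3, 1 became 2 with DESeq2, 3 with no filter and 0 with at least 50 cells, total counts, pool, sort, mixed libraries alone or without cluster 2. In macrophages against day 1, mixed libraries alone gave 2 calls at day 2 and 5 at day 3, against 0; at day 21, DESeq2 gave 2 and a pool term 0, against 1. For day 10 against day 3, DESeq2 and no filter gave 1 and mixed libraries alone 2, against 0. Between macrophages and microglia (6 genes tested), the 3 early calls became 6 with no filter (10 tested) and 0 with thinning (2 tested). The 2 late calls became 5 with DESeq2, 6 with no filter, 1 with at least 50 cells and 0 with thinning (2 tested). Most of these genes were thus not tested after thinning. Late minus early, 0 became 1 with DESeq2 and 5 with no filter. For the sort, 3 became 6 with DESeq2, and 5 or 0 with the conflicting library as infiltrating or resident.

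Leaving out 1 library at a time gave 2 to 5 calls in microglia at day 1, 1 to 4 at day 2, 2 to 4 at day 3, 2 to 4 at day 10, 2 to 3 at day 21, 2 to 4 for day 3 against day 1 and 0 to 3 for day 10 against day 3. In macrophages it gave 0 to 0 at day 2, 0 to 1 at day 3, 3 to 5 at day 10, 0 to 2 at day 21 and 0 to 1 for day 10 against day 3. Within libraries it gave 6 to 7, 7 to 8 and 5 to 5 for the macrophage, dendritic-like and neutrophil-like comparisons, 1 to 4 early, 0 to 3 late, 0 to 1 for their difference, and 0 to 7 for the sort.

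With the replicate number as a block, the calls were 4, 3, 4, 3 and 3 in microglia at days 1, 2, 3, 10 and 21, 3 in macrophages at day 10 and 4 for the sort. Over all genes, total counts gave 2655 calls against 1111 in microglia at day 10 and 2162 against 754 at day 21. DESeq2 gave 1444 against 743 for day 10 against day 3, and in macrophages 781 against 305 at day 21 and 408 against 58 for day 10 against day 3. A pool term could not be fitted for microglia at days 1 and 21 and for day 3 against day 1, nor for macrophages at day 10, and microglia at day 21 could not be fitted without its 1 library.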

Other observations

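The day 3 library with conflicting labels (D3_conflict 1) entered the comparisons only as a named alternative. Over all its cells Gdf3 was 34.4 CPM, against 30.7 in the infiltrating and 5.24 and 7.45 in the resident libraries of day 3. Its neutrophil-like cells had 390 CPM of Csf1 and 190 CPM of Gdf15, within the range of the 4 neutrophil-like sums described above, and 0.988 CPM of Igf1 from 2 UMIs, where those 4 sums held none.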
